A study of Mus musculus with 8 samples.

Results

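A set of 9 genes for transcription factors were followed across 2 stages of mouse sympathetic ganglion development in which the LIM homeodomain factor *Isl1* had been deleted or reduced. The 9 genes, *Hmx1*, *Tbx20*, *Casz1*, *Shox2*, *Prox1*, *Satb1*, *Insm2*, *Tox2* and *Tshz3*, were chosen by their measured ratios of mutant to control in these tables, so that those ratios are a description and carry no test. All 9 had a row in each table, of 13506 genes for E11.5 (embryonic day 11.5) and 13413 genes for E14.5, and 12727 genes were in both. At E11.5, ganglia of *Isl1* CKO embryos (*Wnt1-Cre;Isl1* f/f, labelled Isl1-/-) were compared with *Wnt1-Cre;Isl1*+/+ controls, labelled wild type. Both carried the *Rosa26-tdTomato* reporter, and non-fluorescent tissue was cleaned off under a fluorescence microscope. At E14.5, *Isl1* hypomorphic embryos (*Isl1* f-neo/f-neo, labelled as an Isl1 mutation) were compared with *Isl1*+/+ wildtype embryos. Each genotype had 2 libraries, and each library was made from the pooled ganglia of several embryos.

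These groups limit what a value stands for. Wnt1-Cre is active in the neural crest, so that the deletion reaches the ganglion neurons and glia but not vessel, blood or other cells outside that lineage, and the hypomorph retains a reduced level of *Isl1*. The deposited value is 1 pooled FPKM (fragments scaled to transcript length and library size) per gene and genotype, in which both libraries are combined. No spread between libraries and no read depth can be read from these values, no test was made here, and each ratio below is a difference between 2 pooled values. Ratios are given as log2 of mutant over control after adding 0.1 FPKM to each, and a difference is counted when it reaches 1.5-fold (0.58 on the log2 scale). *Isl1* itself was at 133 FPKM in controls and 40.0 FPKM in CKO ganglia at E11.5 (log2 ratio -1.73), and at 162 FPKM in wildtype and 83.1 FPKM in hypomorphic ganglia at E14.5 (log2 ratio -0.96). A gene FPKM sums over all exons, so it does not show whether the deleted part was present. In such bulk values, fewer cells of a type and less RNA per cell cannot be told apart. The paper counted comparable neuron numbers in hypomorphs and controls at E14.5. In the CKO it counted fewer from E11.5, although it calls the cell loss at the stage sequenced minimal. By qPCR it also reports lower *Insm2* in the CKO, on sorted cells, and lower *Hmx1* in hypomorphs.

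Sympathetic neurons arise from neural crest cells under a network of transcription factors that includes HAND2, GATA3 and ISL1. Young sympathetic neurons first share noradrenergic and cholinergic traits and later separate into noradrenergic neurons and a smaller cholinergic population. HMX1, a homeodomain protein, is known in this tissue as a factor of the noradrenergic branch. Of the other proteins, TBX20 is a T-box factor known from heart and motor neurons, SHOX2 and PROX1 are homeodomain factors known from the sinoatrial node and from lymphatic vessels, CASZ1 and INSM2 are zinc finger proteins, TSHZ3 is a teashirt-type zinc finger protein, SATB1 organises chromatin in T cells and neurons, and TOX2 belongs to the HMG-box proteins.

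The study designed PCR primers to examine ISL1 occupancy at *Tbx20*, a gene that was lower in mutants at both stages. The window between the primers is shown, with its control window, because it is the DNA at which PCR examined ISL1 binding for this gene. The paper also mapped ISL1 binding across the genome by ChIP-seq and names *Tbx20* and *Prox1* among direct targets. Both primer pairs matched the mm9 genome once. The *Tbx20* window spans chr9:24553050-24553242 and lies in an intron of *Tbx20*, 25600 bases from the annotated start of that gene. The control window is nearby at chr9:24557941-24558122, in another stretch without exons of *Tbx20*. Both are given as the plus strand of mm9, whereas the gene is on the minus strand, and capitals mark TAAT, the core recognised by many homeodomain proteins, on either strand (ATTA on the strand shown).
Tbx20 window: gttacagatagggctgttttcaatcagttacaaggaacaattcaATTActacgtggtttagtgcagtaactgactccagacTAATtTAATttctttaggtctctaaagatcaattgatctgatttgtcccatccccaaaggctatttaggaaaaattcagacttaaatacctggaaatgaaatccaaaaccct
Tbx20 control window: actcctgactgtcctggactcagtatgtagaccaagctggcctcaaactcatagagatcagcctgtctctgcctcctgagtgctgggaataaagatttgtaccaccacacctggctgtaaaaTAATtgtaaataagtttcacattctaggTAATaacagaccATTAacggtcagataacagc
The *Tbx20* window held 3 TAAT cores, and its control window also held 3. The longer motif CTAATG, which contains TAAT, was in neither window.

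Promoters of a gene lower at both stages and of the genes with opposite differences are shown for comparison, as RefSeq windows of GRCm38.p6 around the annotated start, most of each lying before it, written along the gene. They are *Tbx20* (chr9:24774254-24774553, minus strand), *Shox2* (chr3:66981722-66982021, minus strand) and the first of 2 *Prox1* promoters (chr1:190170778-190171077, minus strand), again with TAAT in either direction in capitals.
Tbx20 promoter: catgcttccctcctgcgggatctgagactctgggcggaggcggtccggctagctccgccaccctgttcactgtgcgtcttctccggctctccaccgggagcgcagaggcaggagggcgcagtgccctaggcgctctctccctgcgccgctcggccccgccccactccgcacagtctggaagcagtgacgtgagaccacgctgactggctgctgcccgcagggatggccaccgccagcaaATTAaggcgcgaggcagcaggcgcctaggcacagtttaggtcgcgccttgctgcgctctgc
Shox2 promoter: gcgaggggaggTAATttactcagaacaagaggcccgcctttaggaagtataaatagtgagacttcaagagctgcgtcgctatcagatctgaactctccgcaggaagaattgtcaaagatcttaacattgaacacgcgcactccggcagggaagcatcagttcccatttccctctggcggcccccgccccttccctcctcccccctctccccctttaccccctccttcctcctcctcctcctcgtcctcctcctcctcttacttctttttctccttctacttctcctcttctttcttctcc
Prox1 promoter: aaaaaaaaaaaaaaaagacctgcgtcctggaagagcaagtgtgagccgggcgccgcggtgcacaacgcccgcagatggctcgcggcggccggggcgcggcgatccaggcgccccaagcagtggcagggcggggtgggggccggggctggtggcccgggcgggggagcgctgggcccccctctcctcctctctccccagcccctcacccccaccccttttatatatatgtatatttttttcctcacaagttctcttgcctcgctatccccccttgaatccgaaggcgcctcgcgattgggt
Promoters were found for all 9 genes, 19 windows in all, and 12 of these held TAAT, against 58.0% of 32841 mouse promoters. *Satb1* and *Tox2* have 5 windows each, some of which overlap, so the 19 are not separate units and a match can be counted more than once. CTAATG was in 1 of the 19, in a *Casz1* promoter, against 7.36% of all promoters. The GATA motif AGATAA was in 0 of the 19, against 11.2% of all promoters. The *Tbx20* promoter was 68.3% G and C and the *Prox1* promoter shown 64.3%, while the *Shox2* promoter, at 53.3%, was near the 52.7% median of all promoters. Of the 19 windows, 17 were above that median. A match or its absence describes these letters only.

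*Hmx1* was the gene with the steepest course. Its level was 4.88 FPKM in E11.5 controls, 0.774 FPKM in CKO ganglia, 366 FPKM in E14.5 wildtype ganglia and 108 FPKM in hypomorphic ganglia. The mutant level was thus 15.8% of control at E11.5 and 29.5% of wildtype at E14.5, with log2 ratios of -2.51 and -1.76. Even the reduced hypomorphic level was 22.1 times the E11.5 control level. At E14.5 its ratio was the 34th lowest of all 13413 genes and its wildtype level ranked 125th. At E11.5 the CKO level was below 1 FPKM, where the ratio depends most on the added constant, and with 1 FPKM added in place of 0.1 it was -1.73. In the mm9 annotation *Hmx1* (ENSMUSG00000067438, chr5:35731507-35742379, plus strand) shares 175 exon bases with the transcript RP24-276N7.2 on the same strand, and the tables have no row for the latter.

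*Tbx20* was also lower in both mutants. It was at 7.90 FPKM in E11.5 controls and 4.03 FPKM in CKO ganglia, a log2 ratio of -0.96. At E14.5 it was at 24.6 FPKM in wildtype and 7.20 FPKM in hypomorphic ganglia, a log2 ratio of -1.76, next to *Hmx1* in rank at 35th lowest. *Tbx20* levels in hypomorphs at E14.5 were therefore 0.911 times the level of controls 3 days earlier. Its E11.5 ratio was the one among these 9 closest to the 1.5-fold limit and was -0.59 after centring on sympathetic neuron markers. *Tbx20* (ENSMUSG00000031965) lies at chr9:24527648-24578746 on the minus strand and overlaps no other annotated gene.

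*Tox2* was the third gene lower at both stages, by similar amounts. It was at 12.5 FPKM in controls and 4.94 FPKM in CKO ganglia at E11.5 (log2 ratio -1.32). At E14.5 it was at 37.7 FPKM in wildtype and 16.7 FPKM in hypomorphs (log2 ratio -1.17). *Tox2* (ENSMUSG00000074607, chr2:163028861-163149906, plus strand) overlaps no other annotated gene. Lower at both stages by at least 1.5-fold were thus 3 of the 9 genes, where 0.534% of the genes in both tables were, and since the genes were chosen on these ratios nothing is read from that contrast.

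*Shox2* and *Prox1* went the opposite way at the later stage. *Shox2* was at 21.5 FPKM in E11.5 controls and 4.05 FPKM in CKO ganglia (log2 ratio -2.38), but at 26.8 FPKM in E14.5 wildtype and 51.3 FPKM in hypomorphic ganglia (log2 ratio 0.93). *Prox1* was at 32.6 FPKM and 6.60 FPKM at E11.5 (log2 ratio -2.29), and at 24.8 FPKM and 37.7 FPKM at E14.5 (log2 ratio 0.60). Both genes were therefore near 20% of control in the CKO, 18.8% for *Shox2* and 20.3% for *Prox1*, and above wildtype in the hypomorph, at 191% and 152%. The *Prox1* ratio at E14.5 is just inside the 1.5-fold limit, and at a 2-fold limit neither gene counts as higher. The share of genes lower at E11.5 and higher at E14.5 was 0.864% of those in both tables. In control ganglia the E14.5 level was 1.25 times the E11.5 level for *Shox2* and 0.762 times for *Prox1*, log2 ratios of 0.32 and -0.39 that became -0.58 and -1.29 after centring on sympathetic neuron markers.

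**Figure D1:**
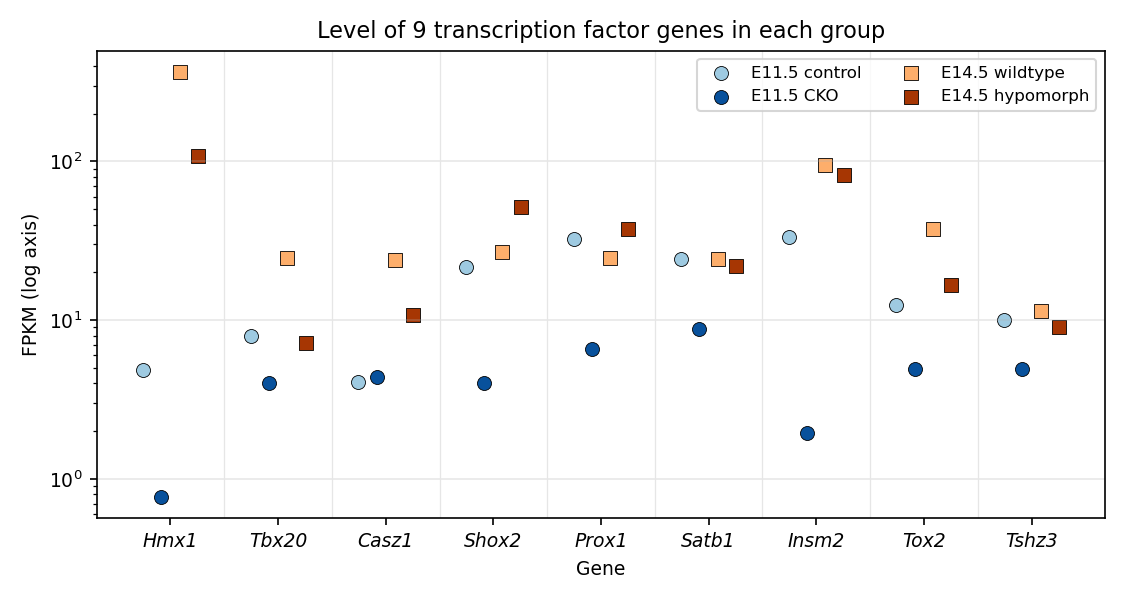
Level of each of the 9 genes in the 4 groups, in FPKM on a log axis, with 1 point per gene and group standing for the authors' pooled value of 2 libraries. *Hmx1* spans 0.774 to 366 FPKM, and *Shox2* and *Prox1* have the hypomorph above the wildtype at E14.5 while the CKO lies below the control at E11.5.

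Other measurements move with these 2 genes. *Shox2* (ENSMUSG00000027833, chr3:66775649-66785693, minus strand) overlaps *Rsrc1*, a splicing-related gene on the opposite strand. Of the 3371 exon bases of *Shox2*, 153 are shared with *Rsrc1*. *Rsrc1* was at 34.0 FPKM in controls and 18.9 FPKM in CKO ganglia at E11.5, and at 25.7 FPKM in wildtype and 31.9 FPKM in hypomorphs at E14.5, the same directions as *Shox2*. The cDNA kit is not stated to keep strand, so reads in the shared exons cannot be assigned to one of the genes, and the part of *Rsrc1* in the *Shox2* values was not tested. *Prox1* (ENSMUSG00000010175, chr1:191945660-191994559, minus strand) shares 133 exon bases with the long noncoding RNA Gm17566 on the other strand, for which the tables have no row.

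*Prox1* is also a marker of lymphatic endothelium, and endothelial genes were higher in hypomorphs. All 8 endothelial markers were above wildtype at E14.5, 0 of them by 1.5-fold, where 2.89% of all genes were higher by that much. Their median log2 ratio was 0.47, and their summed level was 79.2 FPKM in wildtype and 107 FPKM in hypomorphic ganglia. The lymphatic marker *Lyve1* was at 6.56 and 9.39 FPKM and *Flt4* at 2.82 and 3.52 FPKM. *Pdpn*, also on the list, was at 9.56 and 10.1 FPKM, a log2 ratio of 0.07. At E11.5, where *Prox1* was lower in the CKO, the 8 markers were all higher. By 1.5-fold 3 of them were, where 18.9% of all genes were. The sum of the 8 was 53.0 FPKM in controls and 86.0 FPKM in CKO ganglia. Endothelial genes and *Prox1* thus moved in opposite directions at E11.5 and in the same direction at E14.5, and the part of endothelial cells in the *Prox1* values was not tested.

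Another 3 genes differed by 1.5-fold at E11.5 but not at E14.5. *Insm2* had the lowest ratio of the 9, at 33.2 FPKM in controls and 1.96 FPKM in CKO ganglia (log2 ratio -4.02, 5.90% of control), whereas at E14.5 it was at 94.8 FPKM in wildtype and 82.5 FPKM in hypomorphs (log2 ratio -0.20). *Satb1* was at 24.4 FPKM in controls and 8.74 FPKM in CKO ganglia at E11.5 (log2 ratio -1.47), and at 24.4 FPKM and 22.0 FPKM at E14.5 (log2 ratio -0.15). *Tshz3* was at 10.0 FPKM and 4.93 FPKM at E11.5 (log2 ratio -1.01), and at 11.5 FPKM and 9.12 FPKM at E14.5 (log2 ratio -0.33). Of these, *Tshz3* was nearest to the 1.5-fold limit at E14.5 from the outside. *Insm2* (ENSMUSG00000045440, chr12:56699904-56703005, plus strand) is a gene of 1 exon, *Satb1* (ENSMUSG00000023927) lies at chr17:51875512-51972615 on the minus strand, and *Tshz3* (ENSMUSG00000021217) lies at chr7:37483137-37558476 on the plus strand. Of 6 lymphoid markers, *Ptprc* and *Cd3e* among them, 0 had a row in either table, and the part of lymphocytes, in which *Satb1* is abundant, in the *Satb1* values was not tested.

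*Casz1* showed the reverse timing. It was at 4.10 FPKM in controls and 4.40 FPKM in CKO ganglia at E11.5 (log2 ratio 0.10), and at 23.8 FPKM in wildtype and 10.8 FPKM in hypomorphs at E14.5 (log2 ratio -1.13). *Casz1* had the lowest control level of the 9 genes at E11.5. *Casz1* (ENSMUSG00000028977, chr4:148178538-148328998, plus strand) shares 122 exon bases with Gm13205 on the opposite strand, which has no row in the tables.

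Counted together, 8 of the 9 genes were at least 1.5-fold lower in CKO ganglia and 0 were higher, where 12.9% of all genes at E11.5 were lower and 18.9% higher. In hypomorphic ganglia 4 of the 9 were lower and 2 higher, where 2.12% of all genes at E14.5 were lower and 2.89% higher. The median log2 ratio of the 9 was -1.47 at E11.5 and -0.33 at E14.5, beside medians of 0.052 and 0.0028 over all genes. These counts follow from how the genes were picked. The stages also differ in allele, in control genotype and in how the ganglia were dissected, so that stage and allele cannot be told apart.

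**Figure D2:**
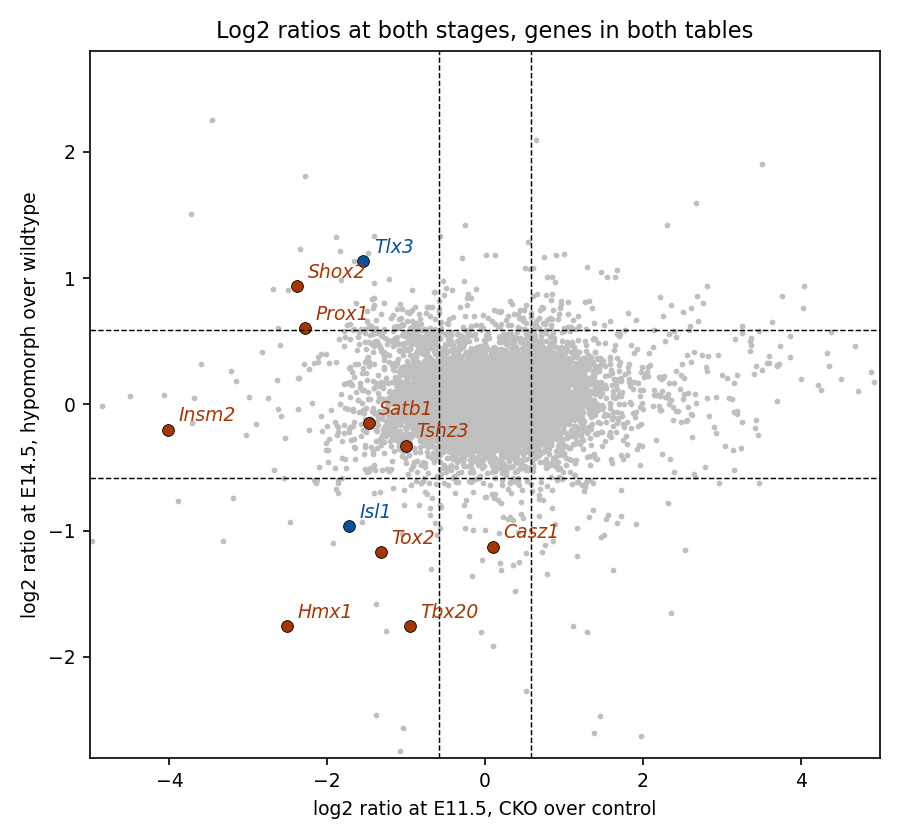
Each grey point is a gene found in both tables, placed by its log2 ratio at E11.5 (CKO over control, horizontal) and at E14.5 (hypomorph over wildtype, vertical), with dashed lines at 1.5-fold and 94 of 12727 genes outside the axes. The 9 genes are in brown, and *Isl1* and *Tlx3* in blue; *Hmx1*, *Tbx20* and *Tox2* lie at the lower left, *Shox2* and *Prox1* at the upper left.

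The CKO ganglia differed from controls in other cell types as well. All 7 glial markers, such as *Sox10* and *Foxd3*, were at least 1.5-fold higher at E11.5, where 18.9% of all genes were. The sum of the 7 was 176 FPKM in controls and 391 FPKM in CKO ganglia. At E14.5, 0 of the 7 reached that limit, where 2.89% of all genes did. Their sum was then 370 FPKM in wildtype and 415 FPKM in hypomorphic ganglia. Erythroid genes made up 2.29% of all FPKM in controls and 11.3% in the CKO. Of the 10924 erythroid FPKM in controls, 7552 were *Hbb-y*, which is listed at 0 in the CKO, so these shares are not alike in content. The 13 sympathetic neuron markers had a median log2 ratio of -0.36 at E11.5 and -0.27 at E14.5. The part of cell composition in these ratios was not tested. After centring on the neuron markers, the ratio was -2.02 for *Shox2*, -1.92 for *Prox1* and -3.65 for *Insm2* at E11.5, and -1.49 for *Hmx1* and -1.48 for *Tbx20* at E14.5.

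Of the other cell types, heart muscle is a known place of *Tbx20* and *Shox2* expression. Of 11 cardiac markers, 7 of the 10 measured were at least 1.5-fold higher in CKO ganglia at E11.5. Over all genes, 18.9% were higher and 12.9% lower. *Myl7* was at 2.36 FPKM in controls and 25.4 FPKM in the CKO, and the defining gene *Nkx2-5* had no row. Among the 7, *Nppa*, *Tnni3* and *Myh6* were near the floor in controls, at 0.0765, 0.408 and 0.923 FPKM. *Ryr2* was lower, at 3.27 FPKM in controls and 0.825 FPKM in the CKO (log2 ratio -1.86). The 10 markers summed to 129 FPKM in controls and 249 FPKM in the CKO, of which *Actc1* made up 103 and 173 FPKM. *Tbx20* and *Shox2* were lower in the same CKO ganglia, and the part of heart muscle in their values was not tested. At E14.5, 8 cardiac markers were measured with sums of 196 FPKM in wildtype and 181 FPKM in hypomorphs. Lower by 1.5-fold was 1 of them, *Ryr2*, where 2.12% of all genes were lower. The paper places *Ryr2* with neurotransmission, among the direct ISL1 targets that fell in hypomorphic ganglia. Which cells gave the *Ryr2* values was not tested. The 8 mesenchymal markers were higher in both mutants, with median log2 ratios of 0.83 at E11.5 and 0.28 at E14.5. By 1.5-fold, 5 of them were higher at E11.5, where 18.9% of all genes were, and 0 at E14.5, where 2.89% were. Few sensory neuron markers had rows, 4 of 8 at E11.5 and 2 of 8 at E14.5.

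**Figure D3:**
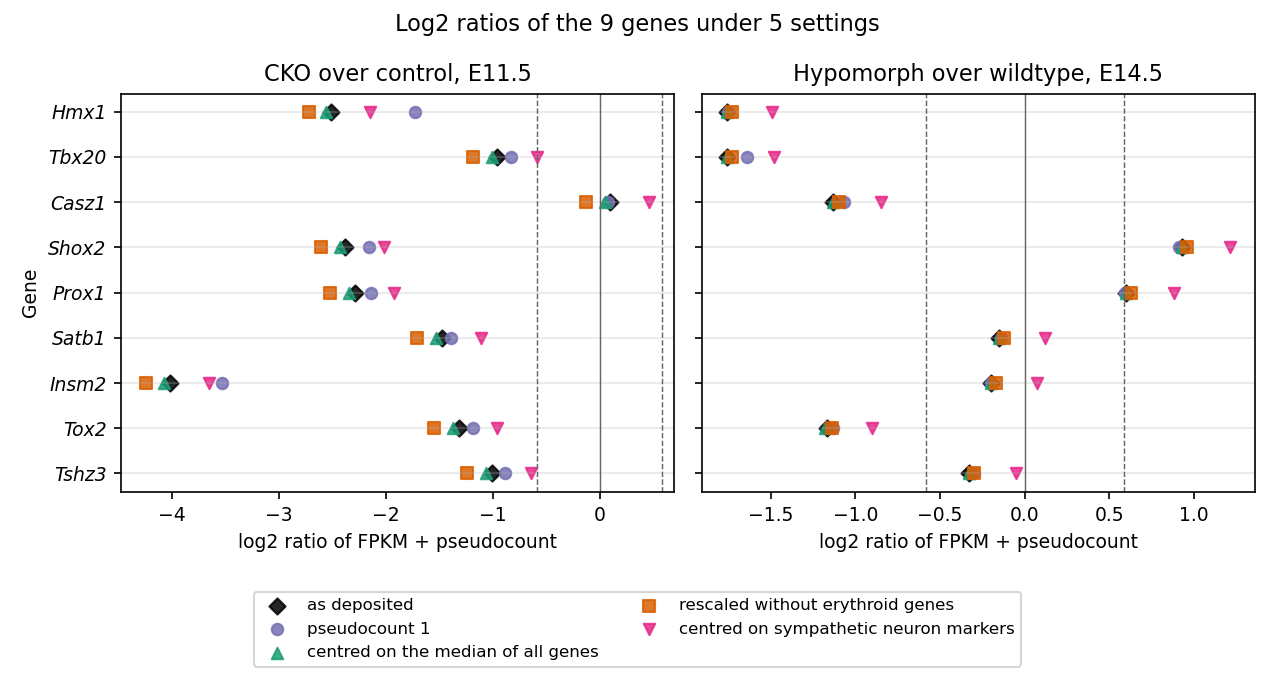
Log2 ratio of each of the 9 genes at E11.5 (left) and E14.5 (right) under 5 settings, with dashed lines at 1.5-fold; 1 marker per setting, no error bars because the tables hold pooled values. Centring on neuron markers shifts every ratio upward, and *Prox1* and *Shox2* stay on opposite sides of 0 at the 2 stages.

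Control ganglia at the 2 stages were compared only side by side, since the tables were normalised separately and the controls differ in genotype and dissection. Across genes in both tables, 29.7% were at least 1.5-fold higher in E14.5 wildtype than in E11.5 control ganglia, with a median log2 ratio of 0.24, and the sympathetic neuron markers had a median of 0.90. *Hmx1* was 74.9 times higher (log2 ratio 6.20), the 13th largest increase among 12727 genes. *Casz1* was 5.80 times higher, *Tbx20* 3.11 times, *Tox2* 3.02 times and *Insm2* 2.86 times, so that 5 of the 9 genes were higher by 1.5-fold. *Shox2*, *Prox1*, *Satb1* and *Tshz3* were within 1.5-fold of the E11.5 level as deposited, but after centring on neuron markers *Prox1*, *Satb1* and *Tshz3* were lower by more than 1.5-fold, at -1.29, -0.90 and -0.70. This comparison and that of the hypomorph use the same wildtype values and are not independent. Setting the hypomorph against the rise between control groups, its level held 28.6% of the rise of *Hmx1*, 34.2% of that of *Casz1*, 16.6% of that of *Tox2* and 80.1% of that of *Insm2*, and for *Tbx20* the share was -4.20%, a level below that of the earlier controls.

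The order of the 9 genes by level changed with stage. In E11.5 controls *Insm2* and *Prox1* were highest, at 33.2 and 32.6 FPKM, and *Hmx1* and *Casz1* lowest, with an 8.09-fold range from *Casz1* to *Insm2*. In E14.5 wildtype ganglia *Hmx1* was highest at 366 FPKM, followed by *Insm2* at 94.8 and *Tox2* at 37.7 FPKM. *Shox2*, *Prox1*, *Tbx20*, *Satb1* and *Casz1* lay close together between 23.8 and 26.8 FPKM, and *Tshz3* was lowest at 11.5 FPKM. With no replicate values, neighbours in these orders cannot be said to differ.

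Genes of the same families were measured beside the 9. Of 24 family members listed, 11 had rows in both tables, and of those 3 were at least 1.5-fold lower and 2 higher at E11.5, with 0 past that limit at E14.5. The shares over all genes were 12.9% lower and 18.9% higher at E11.5, and 2.12% lower and 2.89% higher at E14.5. *Insm1*, the zinc finger relative of *Insm2*, was at 70.9 FPKM in controls and 29.8 FPKM in CKO ganglia at E11.5 (log2 ratio -1.25) and at 63.2 and 57.6 FPKM at E14.5 (log2 ratio -0.13), the same timing as *Insm2* at a smaller size. *Tox* had log2 ratios of -1.33 and -0.28, close to *Tox2* at E11.5 only. *Tbx2* had log2 ratios of -1.20 and -0.21, and *Tbx3* of 0.46 and 0.15. *Tshz1* and *Tshz2*, with log2 ratios of 0.09 and -0.30 at E11.5, did not reach the limit that *Tshz3* passed. *Hmx2*, *Hmx3* and *Prox2* had no row, so *Hmx1* and *Prox1* were the listed members of their families with values.

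**Figure D4:**
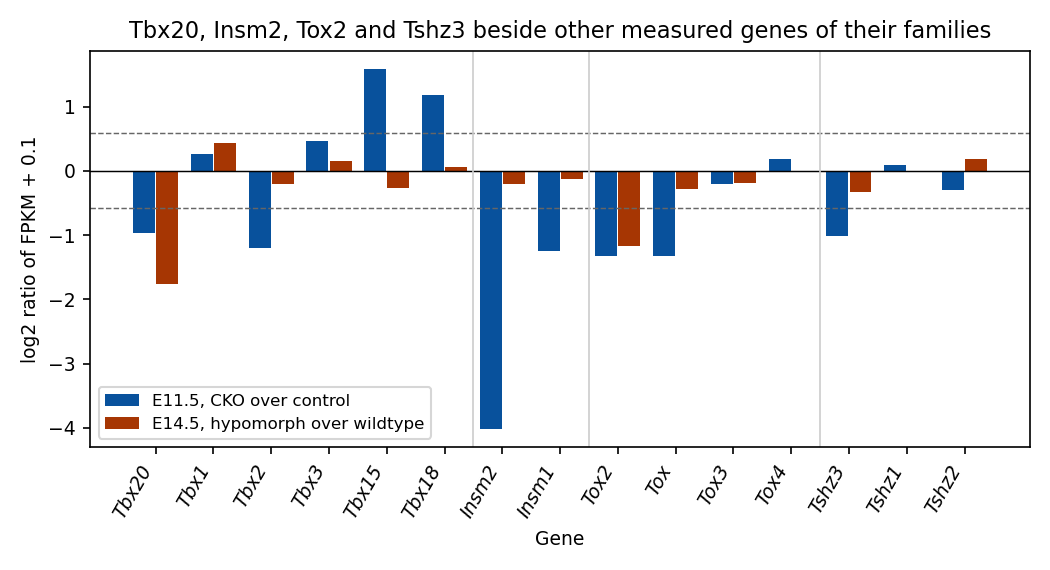
Log2 ratios of *Tbx20*, *Insm2*, *Tox2* and *Tshz3* and the other measured genes of their families at E11.5 (blue, CKO over control) and E14.5 (brown, hypomorph over wildtype), bars from 0 with dashed lines at 1.5-fold. At E14.5, bars below the lower line belong to *Tbx20* and *Tox2* and to none of the other family genes.

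The wider network was described with 20 transcription factors and LIM cofactors of sympathetic neurons, a list that includes *Isl1*. At E11.5, 12 of the 20 were at least 1.5-fold lower and 1 higher (*Lmo4*), with a median log2 ratio of -0.73, where 12.9% of all genes were lower and 18.9% higher. At E14.5, 4 were lower and 1 higher, with a median of -0.03, where 2.12% of all genes were lower and 2.89% higher. *Gata2* (log2 ratio -3.69 at E11.5 and 0.05 at E14.5) and *Tfap2b* (-2.59 and -0.09), both factors of noradrenergic differentiation, had the timing of *Insm2*. *Lmo1*, a LIM-only cofactor, was lower at both stages as *Hmx1* was, at 43.2 and 4.23 FPKM at E11.5 and 65.6 and 30.9 FPKM at E14.5. *Tlx3*, a homeodomain factor, went the way of *Shox2* and *Prox1*, with log2 ratios of -1.54 and 1.14.

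Genes of the noradrenergic and cholinergic branches were set beside *Hmx1*. The enzymes *Th* and *Dbh*, which make noradrenaline, had log2 ratios of -0.43 and -0.10 at E14.5, short of the 1.5-fold limit. At E11.5 they were at -0.34 and 0.13. The noradrenaline transporter gene *Slc6a2* was at 61.4 FPKM in controls and 18.9 FPKM in CKO ganglia at E11.5 (log2 ratio -1.70). Its log2 ratio at E14.5 was -0.28. The cholinergic-associated genes *Ret*, *Tlx3*, *Vip* and *Sst* were higher in hypomorphs, with log2 ratios of 0.91, 1.14, 1.32 and 1.01. The neuropeptide *Vip* and *Tlx3* had been lower in the CKO at E11.5, with log2 ratios of -1.89 and -1.54, while *Ret* was at -0.11 and *Sst* at 0.85. *Chat* and *Slc18a3*, which make and store acetylcholine, had log2 ratios of -0.20 and -0.33 at E14.5. Of the 10 genes of this list, 0 were lower and 4 higher by 1.5-fold at E14.5, and 3 were lower and 1 higher at E11.5. Over all genes, 2.12% were lower and 2.89% higher at E14.5, and 12.9% lower and 18.9% higher at E11.5.

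**Figure D5:**
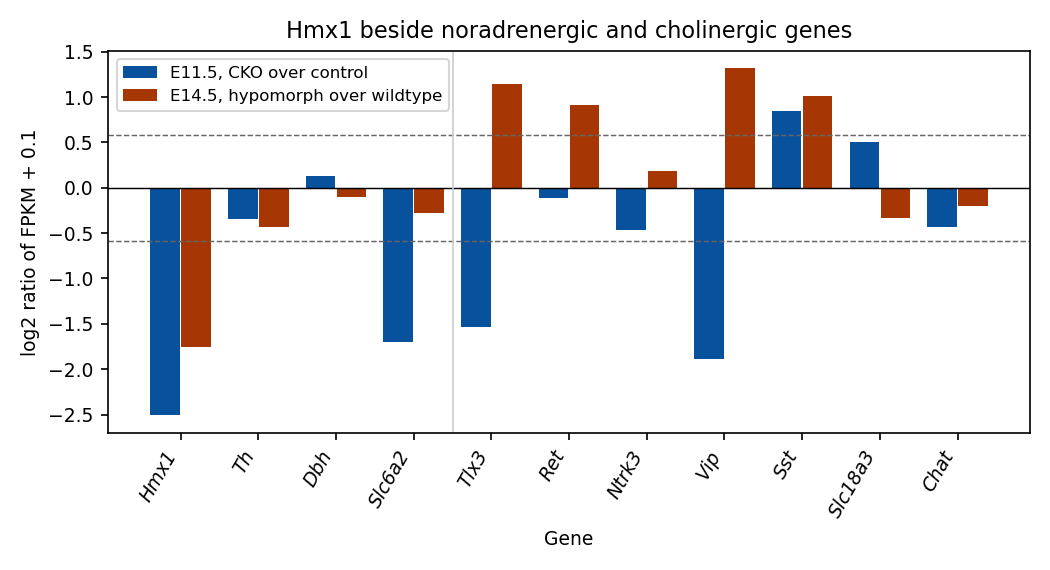
Log2 ratios of *Hmx1*, 3 other noradrenergic genes (left of the line) and 7 genes placed with the cholinergic branch (right) at E11.5 (blue) and E14.5 (brown), with dashed lines at 1.5-fold. *Hmx1* is lower at both stages, and *Tlx3*, *Ret*, *Vip* and *Sst* are above the upper line at E14.5.

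The genes nearest to 4 of the factors were found by distance in the plane of the 2 log2 ratios, among 12465 genes in both tables. Near *Tbx20* lay the potassium channel subunit *Kcnmb2* (distance 0.459), at 5.90 and 2.21 FPKM at E11.5 and 18.0 and 5.96 FPKM at E14.5, and *4833420G17Rik* (0.532). *Hmx1* had more distant neighbours, *Pisd-ps3* (0.828), *Lmo1* (1.06) and *Isl1* (1.12). For *Shox2* they were *Lhfpl3* (0.0239), *Lin28a* (0.302), an RNA-binding protein gene, and *Prox1* itself (0.344). *Prox1* had *Snhg9* (0.283), *Cacng5* (0.289) and *4930487H11Rik* (0.292) as neighbours, each under 10 FPKM in every group. *Lhfpl3* and *Lin28a* were also low, at most 2.94 FPKM. These distances rest on 2 comparisons of pooled values and describe likeness of ratio only.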

How the data were processed

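RNA-seq was performed on dissected sympathetic ganglia, with 8 libraries in 4 groups. According to the study's methods, polyA RNA was converted to cDNA with a SMARTer kit, and reads were aligned to mm9 with TopHat and quantified with cuffdiff. The submitters' processing notes instead list TopHat 1.3.1, Cuffdiff 1.3.0 and the build dm3, a fly build, and the versions could not be reconciled. The deposited FPKM columns, computed by the authors, hold 1 value per gene and genotype, and genes under 1 FPKM in both genotypes have no row. The authors' columns of log2 fold change and p-values were not used. The read depth is unknown.

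Log2 ratios were computed with a pseudocount of 0.1 and a minimum of 1 FPKM in either genotype, and a difference of 1.5-fold was counted, with no test. The constant makes changes of low genes appear smaller. Symbols that occur more than once were left out when the tables were joined. The 9 genes and all lists were chosen with earlier results of these data known. Named from the lists were genes that reached 5 FPKM in any group, or the largest or smallest ratio of a list, *Isl1*, and the 3 nearest genes for *Hmx1*, *Tbx20*, *Prox1* and *Shox2*, without Mir, Snor and Rn symbols. *Chat*, *Flt4* and the other genes below that level were named after their values were seen. Some items are not reported here. Primers were matched to mm9, and gene positions come from GENCODE for that build. The scripts were tested on simulated data. Alternatives were other pseudocounts, minimums, scalings and fold limits. Python 3.11.15, numpy 2.4.6, pandas 2.3.3 and matplotlib 3.10.9 were used.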

Additional observations from a re-analysis of the deposited data

How the results depend on the processing

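No paired analysis was possible because each deposited column pools both libraries of a genotype, and leaving out a library could not be run for the same reason. The log2 ratio of every gene kept its side of 0 under the alternatives where it was past 1.5-fold. The filters cannot change a ratio, and each rescaling or centring shifts all genes of a table by about the same amount. Of the ratios within 1.5-fold, 3 changed side, ranging from -0.13 to 0.46 for *Casz1* at E11.5, and at E14.5 from -0.15 to 0.12 for *Satb1* and from -0.20 to 0.07 for *Insm2*. The ratio of *Hmx1* at E11.5 was -1.73 with a pseudocount of 1. Using no filter changed no count, since the tables already leave out genes under 1 FPKM in both genotypes. At a 2-fold limit 0 of the 9 genes were higher at E14.5, and 0 were lower at E11.5 and higher at E14.5. The number lower at both stages was 2 at a 2-fold limit and 2 with a minimum of 5 FPKM, against 3. The number of network factors lower at E14.5 was 1 at a 2-fold limit and 2 after centring on sympathetic neuron markers, against 4. That centring also moved the log2 ratio of the later to the earlier control group, to 5.30 for *Hmx1*, 0.61 for *Insm2*, 0.73 for *Tbx20*, -0.58 for *Shox2*, 1.61 for *Casz1*, -0.70 for *Tshz3*, 0.69 for *Tox2*, -1.29 for *Prox1* and -0.90 for *Satb1*, because the markers themselves were higher at E14.5. Rescaling without erythroid genes shifted the median of all genes at E11.5 to -0.19. With a minimum of 5 FPKM, *Hmx1* and *Casz1* left the E11.5 comparison. The unknown depth limits the low values most, such as *Hmx1* in the CKO.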

Other observations

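The erythroid list used for the rescaling holds near-identical globin genes, whose values are uncertain. *Hbb-y* was at 7552 FPKM in E11.5 controls and listed at 0 in CKO ganglia, while *Hba-x* was at 2572 and 53627 FPKM. At E14.5, *Hba-a1* was at 3.04 FPKM in wildtype and 0.0565 FPKM in hypomorphs, and *Hba-a2* at 0.0809 and 3.60 FPKM.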
